A study of Mus musculus with 18 samples.

Results

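The 46 genes described here encode the working parts of the lysosome: the pump that acidifies it, the hydrolases that digest its content, the proteins of its membrane and the transcription factor TFEB. They were chosen by name from the 23420 genes listed for each library, by a rule that uses no measured value but was written with earlier results of these data known, and comprised 13 subunits of the vacuolar ATPase (V-ATPase), 11 proteases and reductases, 7 glycosidases, 5 proteins of lipid breakdown and cholesterol export, 9 membrane proteins and Tfeb. The files list one of them, Cyb561a3, under its older symbol Cybasc3. All mice, aged 5 to 7 weeks, were of MRL/lpr, a strain prone to lupus in which Fas is mutated by the lpr insertion. Splenic B cells were purified by negative selection with beads and kept for 4 h with or without a TLR agonist. In the first arm all mice were female and Tlr7-/-, and either carried Tlr997, a TLR9 with the signaling TIR domain of TLR7 inserted at the Tlr9 locus (Tlr997 Tlr7-/-, called Tlr997), or were labelled Tlr9+/- Tlr7-/- (called Tlr9het). These cells were left unstimulated or given 10 µg/ml CpG, a DNA oligonucleotide agonist of TLR9. In the second arm all mice were male and Tlr9-/- and carried Tlr779, a TLR7 with the TIR domain of TLR9 (called Tlr779). These cells were left unstimulated or given 5 µg/ml CL097, a small-molecule agonist of TLR7. Each of the 6 groups held 3 libraries, and the protocol names 3 mice per genotype without tying a library to a mouse. The arms differed in sex, genotype, agonist and dose. Mice of the first arm were 5 weeks old per the study's text, and those of the second 5 to 7 weeks. The parts of these differences cannot be told apart, so no test was made between the arms. Per the study's text, Tlr9+/- controls were used to match the amount of receptor in Tlr997 mice, and Tlr779 mice hold TLR7 at the level of heterozygotes. The protocol text of the first arm names its control Tlr9-/- Tlr7-/-, against the titles, which say Tlr9+/-. P-values measure only the spread between these libraries.

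TLR7 and TLR9 do not signal from the cell surface. They travel to endosomes and lysosomes, where proteases cut their ectodomains and where nucleases and low pH bring nucleic acids into a form the receptors can bind. The V-ATPase has a membrane-embedded V0 sector, through which protons pass, and a cytosolic V1 sector, which hydrolyzes ATP. The cathepsins and asparagine endopeptidase (legumain) digest proteins, and with the thiol reductase GILT they also prepare antigen for MHC class II in B cells. TFEB, when in the nucleus, binds E-box motifs in the promoters of many lysosomal genes.

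Levels are given as log2 CPM, the log2 of read counts scaled to library size (CPM) as the authors normalized them, and a difference of 1 is a change of 2-fold. No counts were in the files, so the depth of each library is unknown and no counting interval is given. Back-transformed values summed to between 991992 and 1004412 per library, and 0 pairs of libraries were identical. Libraries of a group correlated at r = 0.944 to 0.989 over genes above 0 log2 CPM in at least 3 libraries. The lowest values, 0.944 and 0.955, were those of unstimulated Tlr997 replicate 3 with replicates 1 and 2. Tlr7 lay at 2.68 to 4.28 log2 CPM in the Tlr9het libraries and 4.81 to 5.36 in the Tlr997 libraries, both labelled Tlr7-/-, and at 6.61 to 7.82 in the Tlr779 libraries. Tlr9 lay between 6.93 and 8.08 in all 18 libraries, including the Tlr779 libraries labelled Tlr9-/-. A sum over a whole gene does not show which part of it was read, so these values do not check the deletions. Per the study's text, the Tlr997 allele holds the coding sequence of the TLR7 TIR domain, and the Tlr779 allele that of TLR9. Whether reads from these inserts were counted toward Tlr7 and Tlr9 was not tested. Differences were tested with limma across all genes above 0 log2 CPM in at least 3 of the libraries fitted, and a gene was called higher or lower where it passed both a Benjamini-Hochberg adjusted p of 0.05 and a change of 0.5 on the log2 scale.

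Of the 46 genes, 45 were above this floor and were tested. The exception was Atp6v0c, which encodes the proteolipid c subunit of the proton ring. It was listed at -5.254, -4.906 and -4.996 for replicate numbers 1, 2 and 3 in 4 of the 6 groups, with -3.45 in CpG-treated Tlr997 replicate 1 and -4.10 in unstimulated Tlr9het replicate 3 as the highest values. Levels this low were below the floor for testing in all 18 libraries. Near-identical processed pseudogenes of Atp6v0c exist, and how reads shared between such copies were counted is not given in the sources used here, so its level is uncertain.

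Levels per length of exon spanned a wide range in unstimulated Tlr9het cells. Ifi30, which encodes GILT, was the highest at 912 CPM per kb and Ctss, the cathepsin that trims the MHC class II invariant chain, at 536 CPM per kb. Psap, the precursor of the saposins that help degrade sphingolipids, followed at 322 CPM per kb and Ctsz, a carboxypeptidase, at 213 CPM per kb. Lamp1, a major glycoprotein of the lysosomal membrane, stood at 108 CPM per kb, while Lamp2, its relative, stood at 13.7 CPM per kb. The V-ATPase subunits ranged from 74.2 CPM per kb for Atp6v1f to 5.20 CPM per kb for Atp6v1h, Atp6v0c aside. Ctsl, a cathepsin of thymic epithelium and macrophages, was near the bottom at 1.91 CPM per kb, and Cd63, a tetraspanin of late endosomes, lay at 1.68 CPM per kb. In the other unstimulated groups Ifi30 again led, at 782 CPM per kb in Tlr997 and 696 CPM per kb in Tlr779. With CpG in Tlr9het, Ifi30 stood at 200 CPM per kb and Ctss, at 302 CPM per kb, was the highest.

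Most of the genes that changed fell, among them genes of each of the roles above, and the few that rose were Gla, Atp6v1f, Cln3 and Atp6v0b. CpG raised 3 of the 45 genes in Tlr9het and lowered 26, where 29.7% of all 11494 genes tested rose and 28.2% fell. In Tlr997 it raised 0 and lowered 26, where 29.6% of all genes rose and 26.0% fell. CL097 raised 2 and lowered 20 in Tlr779, where 22.7% of all 11082 genes tested rose and 23.6% fell. The median log2 fold change of the 45 genes was -0.63, -0.61 and -0.33 in that order, against 0.04, 0.07 and -0.02 for all genes. In all, 20 genes were called lower in all 3 agonist comparisons, 31 were called in at least 1, the other 14 tested were called in none, and 0 had opposite calls in different comparisons. Of 7 B-cell markers, 6 were called lower and 1 (Pax5) higher with CpG in Tlr9het, 4 lower and 0 higher in Tlr997 and 5 lower and 0 higher with CL097, and their summed level was 6094 to 6818 CPM in unstimulated and 1822 to 1876 CPM in CpG-treated Tlr9het cells. Since these are bulk samples scaled to library size and quantile-normalized by the authors, fewer cells of a type and a smaller share of these transcripts within cells were not told apart.

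**Figure D1:**
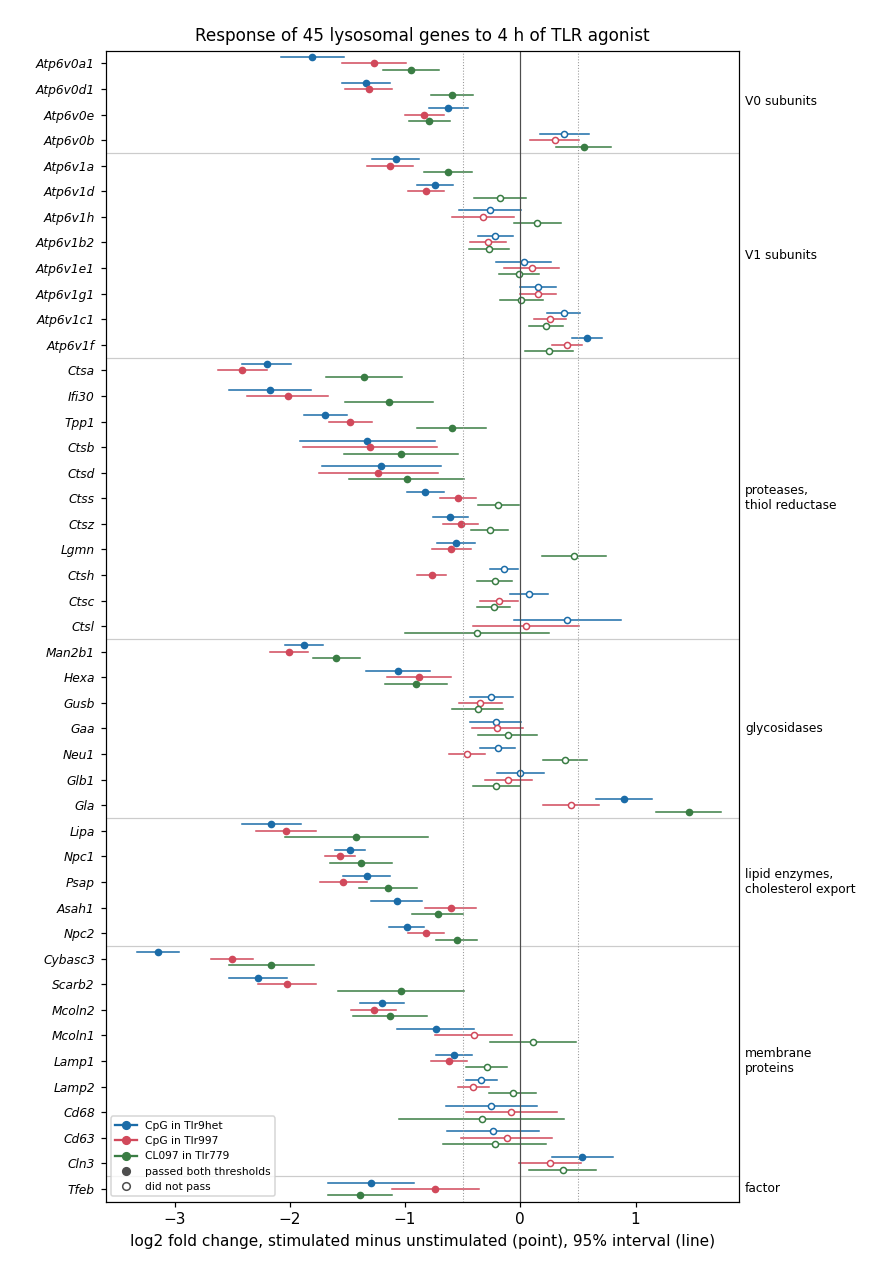
Log2 fold change (x axis) of the 45 genes tested, sorted by role and by their response in Tlr9het, in the 3 agonist comparisons. Points are limma estimates from 3 libraries a group, lines are 95% intervals, filled points passed both thresholds and dotted lines mark 0.5 on either side of 0. All 5 lipid genes lie to the left of the threshold in each comparison, whereas most V1 subunits lie near 0.

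Within the V-ATPase, 3 of the 4 V0 subunits tested were lower in each agonist comparison. Of all genes, 28.2% fell with CpG in Tlr9het, 26.0% with CpG in Tlr997 and 23.6% with CL097. Atp6v0a1, which encodes an isoform of the large membrane subunit, lay at 6.76, 6.50 and 6.51 log2 CPM in unstimulated and 4.94, 4.86 and 4.55 in CpG-treated Tlr9het libraries. The groups did not overlap, and the log2 fold change was -1.81 with an SE of 0.13 (limma adjusted p = 2.07e-08), against -1.27 in Tlr997 and -0.95 with CL097. Atp6v0d1, a stalk-side subunit of V0, was at 6.39, 6.45 and 6.55 log2 CPM without and 5.11, 5.16 and 5.09 with CpG in Tlr9het, and its log2 fold changes were -1.34 in Tlr9het, -1.32 in Tlr997 and -0.59 with CL097. Atp6v0e, a small V0 subunit, had log2 fold changes of -0.62 in Tlr9het, -0.83 in Tlr997 and -0.79 with CL097. Atp6v0b, a proteolipid of the ring that carries protons, went the other way. It lay at 5.17, 5.39 and 5.50 log2 CPM in unstimulated and 5.96, 5.94 and 5.81 in CL097-treated libraries, a rise of 0.55 on that scale with an SE of 0.10 (limma adjusted p = 0.00212), and its log2 fold changes of 0.38 in Tlr9het and 0.30 in Tlr997 were below the size threshold. Without unstimulated Tlr779 replicate 1 the call with CL097 was lost.

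The 8 V1 subunits were split, with 2 lower with CpG in each genotype and 1 with CL097. With CpG this is near the 28.2% and 26.0% of all genes that fell in Tlr9het and Tlr997, and 23.6% fell with CL097. Atp6v1a, the catalytic A subunit, was lower in each agonist comparison (-1.08 on the log2 scale in Tlr9het, -1.13 in Tlr997 and -0.63 with CL097), with library values of 6.52, 6.61 and 6.63 log2 CPM in unstimulated and 5.46, 5.55 and 5.50 in CpG-treated Tlr9het cells. Atp6v1d, part of the central rotor, changed by -0.74 in Tlr9het and by -0.82 in Tlr997 on the log2 scale. Its log2 fold change with CL097 was -0.18, with an interval from -0.40 to 0.05. Atp6v1f rose in Tlr9het only by the thresholds used, from 6.24, 6.31 and 6.35 to 6.82, 6.90 and 6.91 log2 CPM, a rise of 0.58 with an SE of 0.06 (limma adjusted p = 1.06e-06). The corresponding value in Tlr997 was 0.41, and the difference between these responses, -0.17 with an interval from -0.35 to 0.01, was not called. The other 5 V1 subunits (Atp6v1b2, Atp6v1c1, Atp6v1e1, Atp6v1g1 and Atp6v1h) were called in no comparison. Their log2 fold changes with the agonists lay between -0.32 for Atp6v1h in Tlr997 and 0.38 for Atp6v1c1 in Tlr9het. Among them was Atp6v1b2, the B subunit that forms the catalytic hexamer with the A subunit, whose log2 fold changes were -0.22, -0.28 and -0.27 in Tlr9het, Tlr997 and Tlr779.

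Of the 11 genes for proteases and the thiol reductase, 8 were lower with CpG in Tlr9het, 9 in Tlr997 and 5 with CL097. In each comparison 0 were higher. The shares of all genes in that order were 28.2%, 26.0% and 23.6% lower and 29.7%, 29.6% and 22.7% higher. Ctsa encodes cathepsin A, a carboxypeptidase that also protects neuraminidase and β-galactosidase. It lay at 6.94, 6.96 and 7.02 log2 CPM in unstimulated and 4.72, 4.86 and 4.73 in CpG-treated Tlr9het libraries, and at 7.21, 6.88 and 7.06 and 4.83, 4.60 and 4.48 in the corresponding Tlr997 libraries. Both groups of treated libraries lay more than 2 log2 units below every untreated one, and the log2 fold changes were -2.20 in Tlr9het (limma adjusted p = 2.36e-10) and -2.41 in Tlr997. With CL097 the change was -1.36. The gene (chr2:164832873-164841032) shares 819 of its 4715 exon bases with genes on the opposite strand. Ifi30 (chr8:70762774-70766663) lay at 9.75, 9.53 and 10.08 log2 CPM in unstimulated and 7.62, 7.54 and 7.68 in CpG-treated Tlr9het cells, a 4.51-fold drop (limma adjusted p = 4.07e-08). In Tlr997 the drop was 4.05-fold and with CL097 2.21-fold. Tpp1, a tripeptidyl peptidase, fell 3.24-fold in Tlr9het, 2.78-fold in Tlr997 and 1.51-fold with CL097, where its libraries went from 6.79, 6.80 and 6.85 to 6.04, 6.07 and 6.54 log2 CPM.

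The proteases known to cut the ectodomains of endosomal TLRs did not respond alike. Ctsb, cathepsin B, was lower with each agonist, with values of 8.71, 8.55 and 8.21 log2 CPM in unstimulated and 7.387, 7.298 and 6.797 in CpG-treated Tlr9het cells, or -1.33 on that scale with an SE of 0.27 (limma adjusted p = 0.000576). In Tlr997 the change was -1.30 and its spread was wide, from 6.73 to 7.79 log2 CPM among the 3 treated libraries. With CL097 Ctsb fell by 1.03 on the log2 scale. Beside these values, the summed level of 11 macrophage and monocyte markers ran in the same order as Ctsb over the 3 libraries of each group except the CL097 group: it was 649, 628 and 440 CPM in unstimulated and 404, 339 and 273 CPM in CpG-treated Tlr9het libraries and 867, 524 and 355 and 501, 293 and 217 CPM in the Tlr997 libraries. The part of such cells in the level of Ctsb was not tested. Ctsb (chr14:63122462-63145923) also shares 774 of 6051 exon bases with Fdft1 on the opposite strand. Ctss, the most abundant cathepsin per length, had 9.43, 9.59 and 9.50 log2 CPM without and 8.70, 8.72 and 8.62 with CpG in Tlr9het. Its log2 fold changes were -0.83 in Tlr9het, -0.54 in Tlr997 and -0.19 with CL097, the last of which did not pass either threshold (limma adjusted p = 0.0634). The Tlr997 value lies close to the size threshold, and its call was lost without unstimulated Tlr997 replicate 1.

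Lgmn, asparagine endopeptidase, moved down with CpG and not with CL097. In Tlr9het it went from 7.72, 7.82 and 7.74 to 7.16, 7.26 and 7.19 log2 CPM, and in Tlr997 from 7.892, 7.931 and 7.661 to 7.102, 7.232 and 7.355. The log2 fold changes were -0.56 (limma adjusted p = 2.09e-05) and -0.60. With CL097 it was at 8.54, 8.45 and 8.06 against 7.91, 7.86 and 7.88 log2 CPM in the unstimulated libraries, so that all 3 treated libraries lay above all untreated ones. That log2 fold change of 0.46, with an interval from 0.19 to 0.74, stayed under the size threshold with a limma adjusted p of 0.00981, and reached 0.61 and a call without CL097-treated replicate 3. Ctsl stayed at low values. It was at 3.62, 3.74 and 3.54 log2 CPM in unstimulated and 4.43, 3.94 and 3.75 in CpG-treated Tlr9het cells, and none of its 3 agonist responses passed (limma adjusted p = 0.103, 0.847 and 0.253 in Tlr9het, Tlr997 and Tlr779).

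Of the other cathepsins, the aspartic protease Ctsd was lower with each agonist. Like Ctsb, it ran within the groups of the first arm in the order of the macrophage markers, an observation made after its values were seen. It lay at 6.98, 6.85 and 6.70 log2 CPM without and 5.82, 5.68 and 5.41 with CpG in Tlr9het, and its log2 fold changes were -1.21 in Tlr9het, -1.23 in Tlr997 and -0.99 with CL097. Ctsz was lower with CpG, with log2 fold changes of -0.61 in Tlr9het and -0.52 in Tlr997, from 8.34, 8.36 and 8.09 to 7.76, 7.76 and 7.72 log2 CPM in the latter. The Tlr997 call for Ctsz was lost without unstimulated Tlr997 replicate 1 or replicate 2, and its value with CL097 was -0.27. Ctsc, the dipeptidyl peptidase that activates granule serine proteases, was called in no comparison and lay between 7.41 and 7.88 log2 CPM in all 18 libraries.

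**Figure D2:**
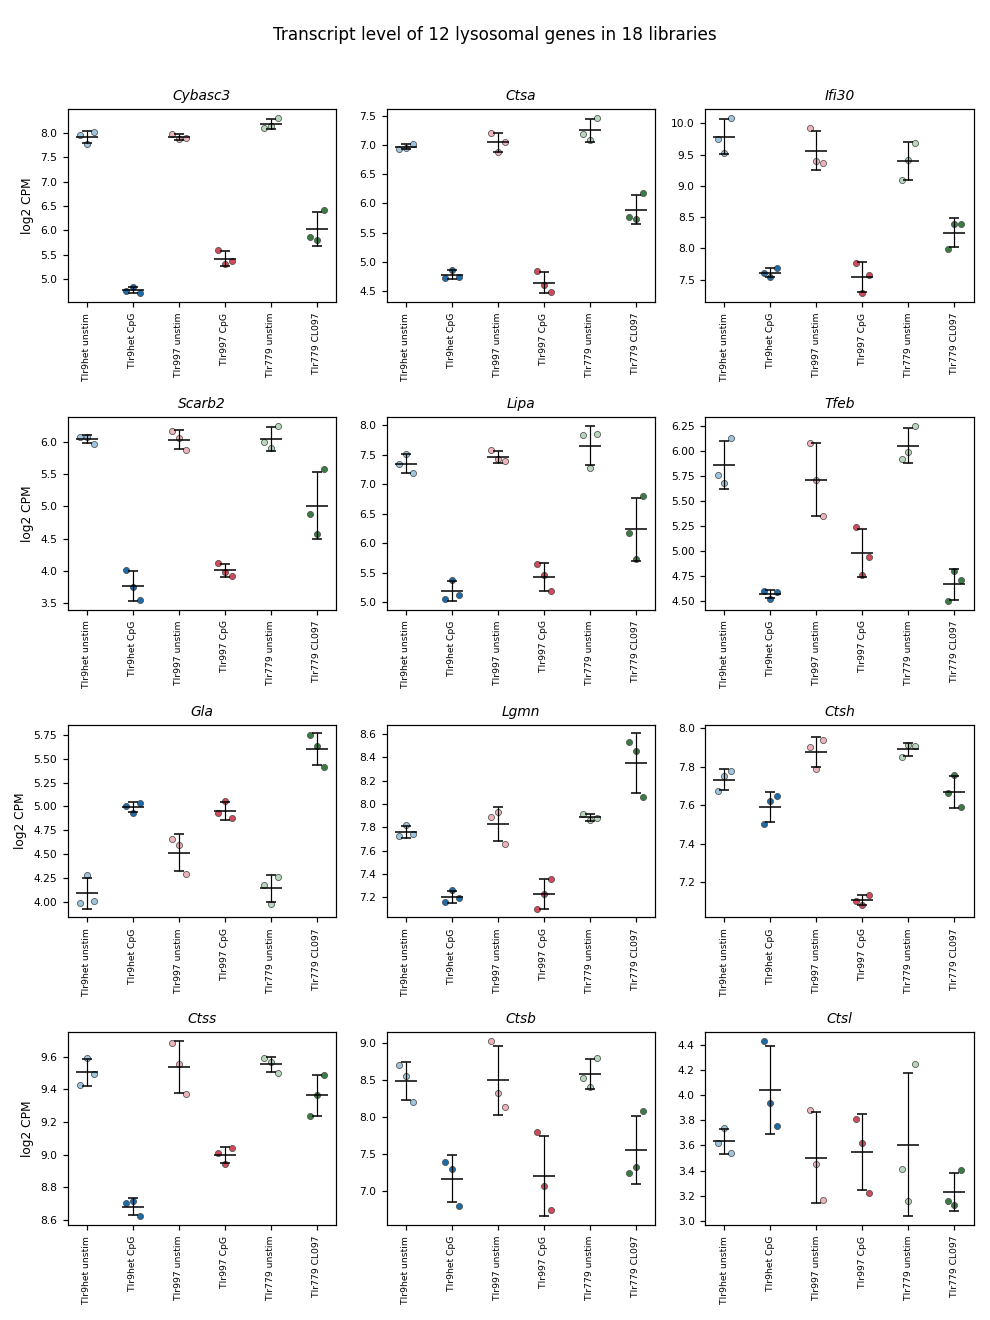
Log2 CPM (y axis, own range in each panel) of 12 of the genes in each of the 18 libraries, by group (unstim, unstimulated). Points are libraries, bars are the group mean ± SD of 3. Cybasc3, Ctsa, Ifi30, Scarb2 and Lipa drop in each stimulated group without overlap, Gla lies higher in each, and Ctsh is low in the CpG-treated Tlr997 group, at 7.081 to 7.132.

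Of the 7 glycosidases, 2 were lower with each agonist, and 1 was higher with CpG in Tlr9het and with CL097. The 2 lower ones are near the shares of all genes that fell, 28.2% and 26.0% with CpG and 23.6% with CL097. Of all genes, 29.7% rose with CpG in Tlr9het and 22.7% with CL097. Man2b1, lysosomal α-mannosidase, went from 7.47, 7.32 and 7.52 to 5.75, 5.79 and 5.97 log2 CPM with CL097, a 3.02-fold drop (limma adjusted p = 5.88e-06). It fell 3.68-fold with CpG in Tlr9het and 4.02-fold in Tlr997. Hexa, the α subunit of β-hexosaminidase, had log2 fold changes of -1.06 in Tlr9het, -0.88 in Tlr997 and -0.90 with CL097. Gla (chrX:134588149-134601125), α-galactosidase A, the enzyme lacking in Fabry disease, was the only gene of the 45 with a rise over 2-fold. With CL097 it went from 4.18, 3.98 and 4.26 to 5.75, 5.63 and 5.42 log2 CPM, a 2.75-fold rise (limma adjusted p = 2.95e-05). With CpG it went from 3.98, 4.28 and 4.01 to 5.00, 4.93 and 5.03 log2 CPM in Tlr9het, a 1.87-fold rise. In Tlr997 it started higher, at 4.66, 4.59 and 4.29, and reached 4.93, 5.06 and 4.88, and its log2 fold change of 0.44 was under the size threshold. Without unstimulated Tlr997 replicate 1 that change was 0.512 and was called (limma adjusted p = 0.00221). The CpG responses of Gla in the genotypes differed by -0.46, which was not called (limma adjusted p = 0.174) but was called without unstimulated Tlr997 replicate 3. Gaa, Glb1, Gusb and Neu1 were called in no comparison, with log2 fold changes with the agonists between -0.46 and 0.39, both for Neu1, the sialidase, in Tlr997 and in Tlr779. Neu1 was called lower with CpG in Tlr997 without unstimulated Tlr997 replicate 1 (-0.501) or without CpG-treated Tlr997 replicate 3 (-0.508).

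The 5 lipid genes were lower with every agonist, where 28.2%, 26.0% and 23.6% of all genes fell in Tlr9het, Tlr997 and Tlr779. Lipa (chr19:34492318-34527474), the acid lipase that frees cholesterol from its esters, went from 7.339, 7.515 and 7.198 to 5.06, 5.37 and 5.13 log2 CPM in Tlr9het, a 4.48-fold drop (limma adjusted p = 1.81e-09). The drop was 4.09-fold in Tlr997 and 2.68-fold with CL097, where the treated libraries were spread over 6.18, 5.73 and 6.80 log2 CPM. Npc1 and Npc2 encode the membrane and the soluble protein that hand this cholesterol out of the lysosome. Npc1 went from 6.49, 6.21 and 6.57 to 5.01, 4.93 and 5.19 log2 CPM with CL097, and its log2 fold changes were -1.48 in Tlr9het, -1.56 in Tlr997 and -1.38 with CL097. Npc2 had log2 fold changes of -0.99, -0.82 and -0.55 in the same order. With CL097 its libraries were at 7.199, 7.293 and 7.342 before and 6.61, 6.74 and 6.82 log2 CPM after, and that call was lost without CL097-treated replicate 1. Psap had log2 fold changes of -1.33, -1.54 and -1.15. Asah1, acid ceramidase, went from 5.24, 5.19 and 4.97 to 4.52, 4.62 and 4.44 log2 CPM with CpG in Tlr997, a change of -0.61, and its other log2 fold changes were -1.07 in Tlr9het and -0.72 with CL097.

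Among the membrane proteins, Cybasc3 had the largest response of the 46 genes to each agonist. It encodes a cytochrome b561 of the lysosomal membrane that passes electrons from ascorbate across it, and lies on chr19:10577172-10595961 of GRCm38. In Tlr9het it went from 7.97, 7.77 and 8.02 to 4.76, 4.84 and 4.71 log2 CPM, an 8.86-fold drop (95% interval of the log2 fold change -3.33 to -2.97, limma adjusted p = 4.02e-12). In Tlr997 it went from 7.99, 7.88 and 7.90 to 5.59, 5.30 and 5.36, a 5.67-fold drop, and with CL097 from 8.10, 8.15 and 8.31 to 5.86, 5.79 and 6.42, a 4.48-fold drop. Per length, this took Cybasc3 from 62.0 to 6.98 CPM per kb in Tlr9het. Its exons share 191 of 3910 bases with Tmem138 on the opposite strand, and the strand setting used in counting is not given in the sources used here.

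Scarb2 (chr5:92441314-92506833), which encodes LIMP-2, the receptor that carries β-glucocerebrosidase to the lysosome, went from 6.08, 6.07 and 5.97 to 4.01, 3.75 and 3.54 log2 CPM in Tlr9het. It fell 4.84-fold there, 4.08-fold in Tlr997 (limma adjusted p = 3.33e-09) and 2.05-fold with CL097. The calcium channel genes of the mucolipin family parted. Mcoln2 was lower with each agonist (log2 fold changes -1.20, -1.27 and -1.13), whereas Mcoln1 passed both thresholds in Tlr9het alone, at -0.73, against -0.40 in Tlr997 and 0.11 with CL097. The difference of the Mcoln1 responses between the genotypes, 0.33, was not called (limma adjusted p = 0.496). Lamp1 went from 8.17, 8.21 and 8.14 to 7.58, 7.60 and 7.63 log2 CPM in Tlr9het and from 8.36, 8.26 and 8.17 to 7.81, 7.61 and 7.51 in Tlr997, changes of -0.57 and -0.62. With CL097 Lamp1 changed by -0.29, and Lamp2 by -0.34, -0.41 and -0.06 in Tlr9het, Tlr997 and Tlr779, values that were not called. Cln3, whose product is lost in juvenile Batten disease, rose with CpG in Tlr9het from 3.95, 4.19 and 4.14 to 4.70, 4.56 and 4.63 log2 CPM. That log2 fold change of 0.54 (limma adjusted p = 0.00137) was not called without unstimulated Tlr9het replicate 1, and the gene shares 442 of 5781 exon bases with Apobr on the opposite strand. Cd63 and Cd68, the latter a glycoprotein of macrophage lysosomes, were called in no comparison.

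Tfeb itself (chr17:47737030-47792419) was lower with each agonist. It lay at 5.76, 5.69 and 6.14 log2 CPM in unstimulated and 4.59, 4.52 and 4.59 in CpG-treated Tlr9het cells, or -1.29 on that scale with an SE of 0.17 (limma adjusted p = 1.39e-05). In Tlr997 it was at 6.08, 5.72 and 5.35 without and 5.24, 4.76 and 4.93 with CpG, a change of -0.74, with unstimulated replicate 3 just above the highest treated library. With CL097 it went from 5.92, 5.99 and 6.26 to 4.496, 4.801 and 4.702, a change of -1.39. The difference between the genotypes' CpG responses, 0.56 with an interval from 0.03 to 1.09, was not called (limma adjusted p = 0.28).

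To show where the letters bound by TFEB lie near these genes, the RefSeq promoters (250 bases before to 50 after each annotated start, GRCm38.p6) were searched for the E-box CACGTG and for its extended form TCACGTGA, which contains the former. Both read the same on either strand. A RefSeq promoter was found for 38 of the 46 genes. CACGTG was in 16 of the 38, or 42.1%, against 8.09% of 27025 genes with a promoter, and TCACGTGA was in 9 of the 38, or 23.7%, against 1.12% of those genes. Of these 9 genes, 7 were lower with CpG in Tlr9het (Atp6v0d1, Atp6v0e, Atp6v1a, Ctsa, Ctsd, Ifi30 and Mcoln1) and 2 were higher (Cln3 and Gla), where 23 of the 38 were lower and 3 higher. A match describes letters and does not show binding. The 27025 genes were taken whether or not they were expressed here. The motif is known from promoters of lysosomal genes, so its share among the 38 is not a finding of these libraries. Mcoln1 and Cln3 were called neither with CpG in Tlr997 nor with CL097, and Gla was not called with CpG in Tlr997. The 11 places are printed with 10 bases on either side, 5′ to 3′ on the strand of the gene, with TCACGTGA in capitals. The sequence around the motif can thus be compared between the genes that fell and those that rose with CpG in Tlr9het.
Atp6v0d1, chr8:105566051-105566078, minus strand: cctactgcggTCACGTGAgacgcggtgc
Atp6v0e, chr17:26676388-26676415, plus strand: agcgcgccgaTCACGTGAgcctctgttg
Atp6v1a, chr16:44139374-44139401, minus strand: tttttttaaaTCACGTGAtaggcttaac
Ctsa, chr2:164833750-164833777, plus strand: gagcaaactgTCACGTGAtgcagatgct
Ctsa, chr2:164833767-164833794, plus strand: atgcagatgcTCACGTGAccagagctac
Ctsd, chr7:142387909-142387936, minus strand: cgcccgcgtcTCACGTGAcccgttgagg
Ifi30, chr8:70766843-70766870, minus strand: tccaaaaactTCACGTGAccagacatgc
Mcoln1, chr8:3500463-3500490, plus strand: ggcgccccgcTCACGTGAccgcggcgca
Cln3, chr7:126583341-126583368, minus strand: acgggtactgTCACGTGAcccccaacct
Gla, chrX:134601216-134601243, minus strand: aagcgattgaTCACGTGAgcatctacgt
Gla, chrX:134601183-134601210, minus strand: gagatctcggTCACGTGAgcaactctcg

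Relative to the annotated start, the first base of the motif lay between position -228, in Gla, and position 5, in Ctsa, whose other copy began at -13. Ifi30 is shown with all 250 bases before its start (chr8:70766664-70766913, minus strand), since it had the highest level per length before stimulation and fell with each agonist. Its TCACGTGA begins at position -197. The promoter entries of Cybasc3 and Scarb2 held neither form.
Ifi30: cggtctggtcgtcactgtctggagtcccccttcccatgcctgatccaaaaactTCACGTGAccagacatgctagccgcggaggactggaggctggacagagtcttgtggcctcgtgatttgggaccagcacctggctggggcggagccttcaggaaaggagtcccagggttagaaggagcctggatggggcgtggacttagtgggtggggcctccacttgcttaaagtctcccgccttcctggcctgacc

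The genotypes were compared without and with CpG. They differ in the TIR domain attached to TLR9 and also in the alleles carried. Per the study's text, Tlr997 mice were homozygous for that allele, whereas the controls were Tlr9+/-. These parts cannot be told apart. Before stimulation, 0 of the 45 genes were called higher and 0 lower in Tlr997 than in Tlr9het, where 0.0174% of all genes were higher and 0% lower. By limma, 7 of the 45 genes had an unadjusted p under 0.05, as did 1237 of the 11494 genes. Gla had the largest of the differences, at 0.42 on the log2 scale (limma adjusted p = 0.295), with 4.29 to 4.66 log2 CPM in Tlr997 and 3.98 to 4.28 in Tlr9het.

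With CpG, 1 of the 45 genes was higher in Tlr997 than in Tlr9het and 0 were lower, where 1.25% of all genes were higher and 1.47% lower. The gene was Cybasc3, whose treated libraries lay at 5.59, 5.30 and 5.36 log2 CPM in Tlr997 and 4.76, 4.84 and 4.71 in Tlr9het without overlap, 0.65 apart on average with an SE of 0.08 (limma adjusted p = 0.000831). Before stimulation the groups differed by 0.00, with an interval from -0.18 to 0.19. The CpG responses of 2 genes differed between the genotypes, 1 with a higher and 1 with a lower value in Tlr997, where 0.687% of all genes had a higher and 0.853% a lower value. For Cybasc3, the change between libraries with the same replicate number was -3.21, -2.93 and -3.30 in Tlr9het and -2.39, -2.58 and -2.54 in Tlr997. The responses differed by 0.64 (SE 0.12, limma adjusted p = 0.0165), and the adjusted p was 0.0582 without unstimulated Tlr9het replicate 1 and 0.0567 without CpG-treated Tlr9het replicate 3. The higher level in treated Tlr997 cells was called with each library left out in turn.

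The other gene was Ctsh (chr9:90054152-90076089), which encodes cathepsin H, an aminopeptidase that is among the proteases able to cut endosomal TLRs. In Tlr9het it went from 7.67, 7.75 and 7.78 to 7.504, 7.620 and 7.649 log2 CPM, a change of -0.14 that was not called. In Tlr997 it went from 7.90, 7.79 and 7.94 to 7.104, 7.081 and 7.132, a change of -0.77 with an SE of 0.06 (limma adjusted p = 4.2e-08). All 3 treated Tlr997 libraries lay below each of the other 9 libraries of the arm. Before stimulation Ctsh was 0.14 higher in Tlr997 on the log2 scale, which was not called. Ctsh lies on the same chromosome as Tlr9, and the part of DNA linked to the Tlr9 alleles was not tested. The responses differed by -0.63 on the log2 scale (SE 0.08, limma adjusted p = 0.00205), and this call stood with each library left out in turn. Among treated cells the difference was -0.49 (limma adjusted p = 0.000383), just under the size threshold, and it reached -0.53 and a call without CpG-treated Tlr9het replicate 1. With CL097 in Tlr779, Ctsh went from 7.85, 7.91 and 7.91 to 7.66, 7.75 and 7.59 log2 CPM, a change of -0.22. Beside both genes, the summed B-cell markers were at 2787 to 3328 CPM in CpG-treated Tlr997 and 1822 to 1876 CPM in CpG-treated Tlr9het libraries, with 3 of the 7 markers called higher in Tlr997, and their part in these differences was not tested.

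**Figure D3:**
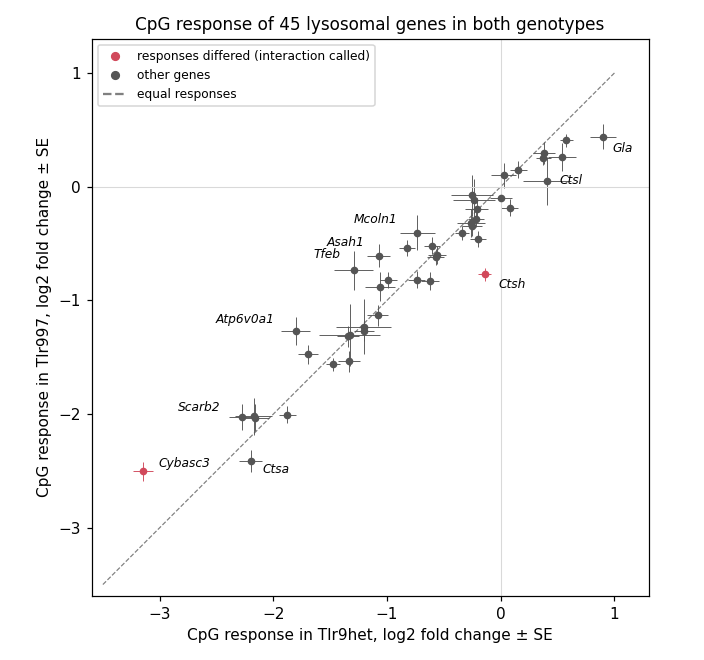
Log2 fold change with CpG of the 45 genes in Tlr9het (x axis) and Tlr997 (y axis), ± SE from limma with 3 libraries a group. The dashed line marks equal responses. Cybasc3 lies above it (-3.15 against -2.50) and Ctsh below it (-0.14 against -0.77), the 2 genes whose responses were called different.

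Atp6v0a1 showed a smaller response in Tlr997 that was not called. Changes between libraries with the same number were -1.82, -1.64 and -1.96 in Tlr9het and -1.497, -1.269 and -1.045 in Tlr997, and the responses differed by 0.54 (limma adjusted p = 0.159). It was called once same-numbered libraries were blocked inside each genotype (limma adjusted p = 0.042). Ctss and Npc2 had higher values in treated Tlr997 cells at a limma adjusted p of 0.0235 and 0.0208, and Neu1 a lower one at 0.00637, all with differences under the size threshold (0.32, 0.32 and -0.39).

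Since macrophages carry many lysosomal transcripts, markers of that lineage were set beside the responses. All 11 macrophage and monocyte markers were above 0 log2 CPM on average in each group, and 0 were higher and 3 lower in each agonist comparison. The 3 of 11 are near the shares of all genes that fell. Those shares were 28.2% with CpG in Tlr9het, 26.0% with CpG in Tlr997 and 23.6% with CL097. Their summed level lay at 440 to 649 CPM in unstimulated and 273 to 404 CPM in CpG-treated Tlr9het libraries, at 355 to 867 and 217 to 501 CPM in Tlr997, and at 377 to 840 and 185 to 392 CPM in Tlr779. The summed B-cell markers were at 5854 to 6478 CPM in unstimulated Tlr997 and, in Tlr779, at 5993 to 7670 CPM without and 2576 to 3231 CPM with CL097. The 4 plasma-cell markers summed to 427 to 1036 CPM without and 268 to 647 CPM with agonist, and 3 were called lower in each agonist comparison. The 5 neutrophil markers summed to 17.1 to 128 CPM over all libraries. T-cell markers summed to at most 21.2 CPM and NK-cell markers to at most 11.9 CPM. With CpG, 1 of 5 T-cell markers and all 3 NK-cell markers tested were called higher in each genotype. Of all genes, 29.7% rose in Tlr9het and 29.6% in Tlr997. Cd3e, Cd3d, Ncr1, Klrb1c and Gzma averaged below 0 log2 CPM in the unstimulated cells of both genotypes. Those of them that were tested could pass the floor through their treated libraries alone, so these counts depend on the filter. With CL097, 0 T-cell markers and 1 NK-cell marker were tested, and 0 were called. The erythroid markers summed to 108 to 3863 CPM, with 0 called. Of 5 dendritic-cell markers, Xcr1 and Clec9a were below 0 log2 CPM in each group, whereas Zbtb46 rose with each agonist (1.80, 1.86 and 2.22 on the log2 scale) and Flt3 with CL097 (0.57). Their sum was 27.1 to 40.2 CPM without and 68.2 to 98.7 CPM with agonist. Of 3 plasmacytoid dendritic-cell markers, Bst2, which is also induced by interferon, rose with each agonist (0.92, 1.43 and 1.34), and their sum was 23.1 to 42.3 CPM without and 41.3 to 99.3 CPM with agonist. The part of these cells in the falls was not tested.

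A wider list of 85 further lysosomal genes was counted in the same way. Of the 78 above the floor in the first arm, CpG raised 5 and lowered 40 in Tlr9het and raised 9 and lowered 38 in Tlr997, where 29.7% and 29.6% of all genes rose and 28.2% and 26.0% fell. CL097 raised 5 and lowered 34 of the 76 in the second arm, where 22.7% of all genes rose and 23.6% fell. The largest drop with CpG was that of Sgsh, a heparan sulfatase lacking in Sanfilippo syndrome, from 4.93, 5.14 and 5.07 to 1.09, 0.33 and 1.01 log2 CPM in Tlr9het, 18.9-fold, with 21.1-fold in Tlr997 and 5.55-fold with CL097. Abcb9, a peptide transporter, followed with 14.7-fold and 13.4-fold, from 2.98, 2.86 and 3.18 log2 CPM to -1.18, -1.23 and -0.22 in Tlr9het. These treated values lie below the floor of 0 log2 CPM, which in Tlr9het only the unstimulated libraries passed. The size of that drop is therefore uncertain. With CL097 the libraries of Abcb9 overlapped and its log2 fold change of -0.53 was not called (limma adjusted p = 0.0873). Gm2a, the activator protein that lifts gangliosides out of membranes for their breakdown, had the largest drop with CL097, 5.97-fold, from 8.10, 8.05 and 7.93 to 5.31, 5.72 and 5.33 log2 CPM. The largest rises among called genes of this list were those of Hyal2, a hyaluronidase, at 3.53-fold, 2.58-fold and 3.06-fold. Nagpa, which uncovers the mannose 6-phosphate tag, rose 2.24-fold in Tlr9het, 1.96-fold in Tlr997 and 1.79-fold with CL097. Galc, which cleaves galactosylceramide, rose 1.77-fold in Tlr9het and 2.30-fold in Tlr997, Mtor, the kinase that holds TFEB in the cytosol, rose 1.70-fold, 1.70-fold and 2.02-fold, and Laptm4b rose 2.19-fold in Tlr997. Of 17 genes for relatives of TFEB and control of mTORC1 at the lysosome, CpG raised 1 and lowered 4 in Tlr9het and raised 3 and lowered 3 in Tlr997, and CL097 raised 1 and lowered 3. In Tlr9het the 4 lower genes are near the 28.2% of all genes that fell.

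**Figure D4:**
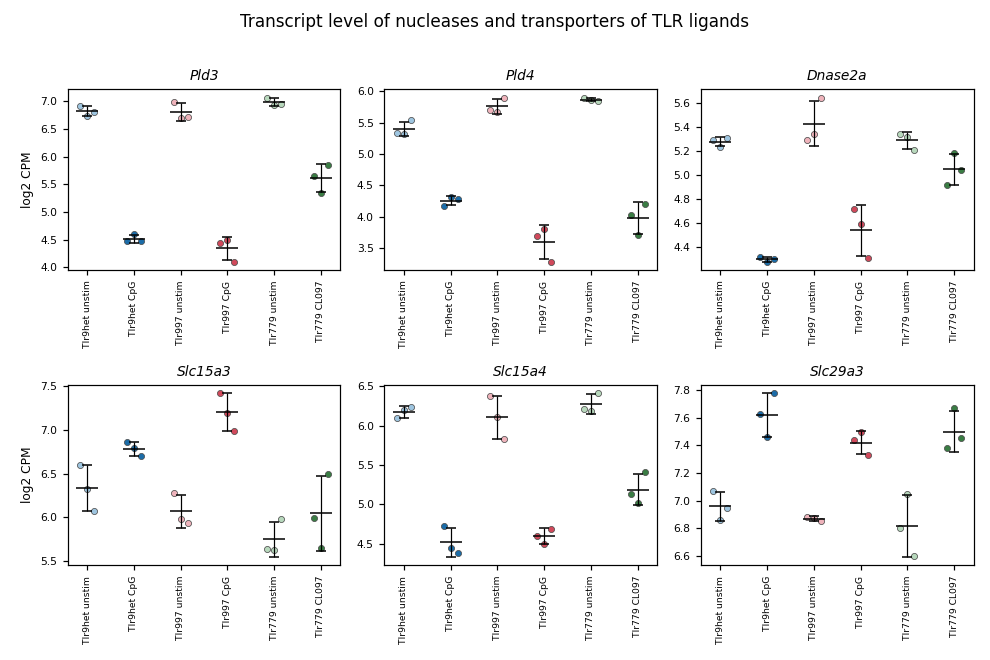
Log2 CPM (y axis, own range in each panel) of 6 genes for nucleases and transporters of TLR ligands in the 18 libraries, with the group mean ± SD of 3. Pld4 is lowest in CpG-treated Tlr997 cells, at 3.28 to 3.81, against 4.17 to 4.31 in CpG-treated Tlr9het cells.

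In that wider list, 10 genes act on the ligands or proteases of the TLR compartment, and 8 of them were above the floor. Pld3 and Pld4 encode 5′ exonucleases that degrade single-stranded nucleic acids. Pld3 went from 6.92, 6.73 and 6.81 to 4.47, 4.60 and 4.48 log2 CPM in Tlr9het, with log2 fold changes of -2.30, -2.46 in Tlr997 and -1.37 with CL097. Pld4 was the only gene of the wider list called between the genotypes, 1 of 78 tested. Of all genes, 1.47% were lower in CpG-treated Tlr997 than Tlr9het cells, and 0.853% had a lower CpG response in Tlr997. The 1 call is near these shares. Pld4 went from 5.34, 5.32 and 5.53 to 4.17, 4.31 and 4.28 log2 CPM in Tlr9het and from 5.70, 5.68 and 5.90 to 3.69, 3.81 and 3.28 in Tlr997, changes of -1.14 and -2.17. The responses differed by -1.02 (SE 0.18, limma adjusted p = 0.0117), and treated Tlr997 cells were lower by 0.66 on the log2 scale (limma adjusted p = 0.00874). With CL097 Pld4 fell by 1.88 on the log2 scale. Dnase2a, an acid endonuclease, had log2 fold changes of -0.98 in Tlr9het and -0.89 in Tlr997, while its value with CL097 was -0.24.

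The transporters of that list went in different directions. Slc15a4, the histidine transporter needed for endosomal TLR signaling, had log2 fold changes of -1.66, -1.52 and -1.09. Its relative Slc15a3 went from 6.28, 5.99 and 5.94 to 7.42, 7.19 and 6.99 log2 CPM in Tlr997, a rise of 1.13, and its values of 0.45 in Tlr9het and 0.30 with CL097 were not called. The difference between the genotypes' responses, 0.68, was not called (limma adjusted p = 0.0951). Slc29a3, a nucleoside exporter, rose with each agonist, by 0.66, 0.55 and 0.68. Of the cathepsin inhibitors, Cst3 was lower with each agonist (-1.84, -1.50 and -1.53 on the log2 scale), and Cstb, with -0.28, -0.30 and -0.26, was not called. The RNase T2 genes Rnaset2a and Rnaset2b, near-identical copies between which counting may split reads, were below the floor.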

How the data were processed

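The authors trimmed the reads, aligned them to mm10 and counted them per gene, and per the submitters' processing notes the tools were FastQC 0.11.7, Trim Galore 0.6.5, STAR 2.6.1a, featureCounts of Subread 2.0.1 and limma. The deposited log2 CPM values, given for 23420 genes in each of 18 libraries, were quantile-normalized by the authors with voom, and the files hold no counts, so count models were not used and the depth and its precision are unknown. Genes below -4 log2 CPM in all libraries mostly shared 1 value per replicate number, in 6008 of 6209 such genes. Between numbers that value was unequal in 524 of them, and no step that would shift values by replicate number is described for these files. If values were shifted by replicate number before deposit, the tests did not account for it: p-values could be too small and the correlations of same-numbered libraries would not be those of the unshifted values.

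From these values, limma 3.58.1 in R 4.3.3 (lmFit and eBayes with a trend) fitted 1 mean per group, in the 12 libraries of the first arm and the 6 of the second apart. Genes over 0 log2 CPM in at least 3 fitted libraries were kept. Adjusted p-values are over all genes kept and intervals are 95% intervals. Calls needed an adjusted p under 0.05 and a log2 fold change over 0.5 in size. Same-numbered libraries deviated together over all genes in Tlr9het (r = 0.513, 0.287 and 0.509) and Tlr779 (0.252, 0.485 and 0.334), but in Tlr997 the values were 0.373, 0.083 and 0.025. The pairing comes from replicate numbers in the titles.

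Alternatives were other filters, thresholds and scalings, a replicate block and each library left out. The 46 genes and all lists were chosen with earlier results of these data known. Named by rule were the 5 lowest and 5 highest called genes of each agonist comparison, the genes called between genotypes, the TLR-cleaving proteases and Tfeb, and others illustrate a role. CPM per kb divides by exon length in GENCODE vM21 (GRCm38), and promoters are from RefSeq (GRCm38.p6). Libraries of mice with wild-type TLR7 were not analysed here.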

Additional observations from a re-analysis of the deposited data

Results flagged for a closer look

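These differences are singled out because the CpG response of Tlr997 and Tlr9het cells differed by the interaction term of the model. The response of Ctsh was -0.63 on the log2 scale in Tlr997 relative to Tlr9het (SE 0.08, limma adjusted p = 0.00205), with same-numbered changes of -0.80, -0.71 and -0.81 in Tlr997 and -0.17, -0.13 and -0.13 in Tlr9het, so that all 3 changes of one genotype lay below all of the other. The range of its adjusted p over the alternatives was 0.000639 to 0.0158. The response of Cybasc3 differed by 0.64 in the other direction, that is a smaller fall in Tlr997 (limma adjusted p = 0.0165). Its adjusted p ranged from 0.00799 to 0.0996 over the alternatives, and the call was lost in 5 of them, thresholds of size aside. For Pld4, which is not among the 46 genes, the difference was -1.02 (limma adjusted p = 0.0117), with same-numbered changes of -2.02, -1.87 and -2.62 in Tlr997 and -1.17, -1.01 and -1.26 in Tlr9het. The alternatives were run for the 46 genes, so no such range is given for Pld4.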

How the results depend on the processing

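Across 31 alternatives, 0 calls of the 45 genes reversed direction. With an absolute log2 fold change over 1 as the threshold, CpG called 18 genes in Tlr9het (29 as reported) and 15 in Tlr997 (26), CL097 called 12 (22), and the genotype comparisons called 0 with CpG and 0 for the difference in response. With no fold threshold, 5 genes differed between the genotypes with CpG in place of 1. The difference in response, with 2 genes as reported, had 1 with all 18 libraries in 1 model, with no trend of the variance or with no filter, where Cybasc3 was lost (limma adjusted p = 0.0996, 0.059 and 0.0838), and 3 with the replicate block within each genotype. The block changed no other call, and could not be fitted within each genotype for the comparisons between genotypes at 1 condition. With no filter, the CL097 calls of Ctsb, Ctsd, Tpp1 and Scarb2 were lost. Leaving out 1 library at a time gave 28 to 29 genes with CpG in Tlr9het, 25 to 27 in Tlr997, 21 to 23 with CL097, 0 to 0 between unstimulated genotypes, 1 to 2 with CpG (2 without CpG-treated Tlr9het replicate 1) and 1 to 3 for the difference in response. The last was 1 without unstimulated Tlr9het replicate 1 or CpG-treated Tlr9het replicate 3, where Cybasc3 was lost, and 3 without unstimulated Tlr997 replicate 3, where Gla was gained. With fold thresholds aside, 28 of 29, 24 of 26 and 16 of 22 agonist calls held in every alternative run for them. The causes were not tested. Because depth is unknown, no counting error is given, and 3 libraries a group limit each interval.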
